A study of Mus musculus with 31 samples.

Results

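The experiment described here is the loss of Ctnnb1, the gene for β-catenin, from the somatic cells of XX fetal mouse gonads, which at this stage are developing as ovaries. The arrays titled XX Ctnnb1KO, 4 in number, were set against the 4 arrays titled as XX control. These 8 arrays are part of 31, which fall into 8 groups of XX or XY gonads lacking Ctnnb1, Sox9, both (DKO) or neither. The description covers autosomal genes, of which 11323 had enough signal to be tested. The XX Ctnnb1KO embryos carried Sf1-cre+/Tg, Ctnnb1f/f and Sox9+/f. The XX control embryos carried Sf1-cre+/Tg, Ctnnb1+/f and Sox9+/f, so they also had the Cre transgene and 1 floxed allele of each gene. Sf1-cre acts in steroidogenic somatic cells and their precursors, and germ cells keep their Ctnnb1. Each array held RNA from a separate pair of gonads of 1 embryo at embryonic day 14.5, freed from the mesonephros, and 40 ng of total RNA was amplified before labelling.

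β-catenin has separate roles in the cell. It links cadherins to the cytoskeleton at adherens junctions, and it enters the nucleus and acts with TCF and LEF factors to switch on genes when a WNT ligand, often helped by an R-spondin, binds its receptors. In the fetal mouse ovary, R-spondin 1 and WNT4 signal through it in the somatic cells, which maintain the ovarian programme and hold back testis features such as coelomic vessel formation and steroid synthesis.

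The arrays were checked against their labels before any comparison. Ctnnb1 itself had signals of 12727, 12069.5, 11716 and 12765 in XX Ctnnb1KO gonads, against 11002, 13786, 12456 and 12884 in XX control gonads, and the groups overlapped (log2 fold change -0.02 ± 0.06, adjusted p = 0.909). A second probe set averaged 3718 ± 358 in XX Ctnnb1KO gonads and 3677 ± 448 in XX control gonads, and the third 1641 ± 91.4 in XX Ctnnb1KO gonads and 1650.3 ± 156 in XX control gonads (SD, n = 4 each). The sources used here do not say whether these probes lie in the deleted stretch, and their signal neither checks the labels nor measures the deletion. In XX Ctnnb1KO replicate 4, Xist, the RNA that silences the inactive X chromosome, had a signal of 51.1, against 7886 to 8553 in the other 3 XX Ctnnb1KO arrays and 7489.8 to 9200.2 in the XX control arrays. The 3 Y-linked genes Eif2s3y, Kdm5d and Uty were at the level of the other XX arrays there, at signals of 11.9 to 29.6. The median log2 level of X-linked genes, less the XX control mean, was -0.158 in replicate 4. It was -0.067, -0.008 and -0.003 in XX Ctnnb1KO replicates 1 to 3, and -0.142 to -0.093 in XY control arrays. The number of X chromosomes in replicate 4 was not tested, and its XX label stays in doubt. Of 402 X-linked genes tested, 47 (11.7%) were called with all 8 arrays and 39 (9.7%) without that replicate, and only autosomal genes are described below. Sox9 had signals of 115, 137, 98.6 and 82.8 in XX Ctnnb1KO gonads, against 174, 11.7, 119 and 174 in XX control gonads, a range that overlaps (log2 fold change 0.18 ± 0.44, adjusted p = 0.875), beside 929 ± 94.5 in XY control gonads (SD, n = 4). The somatic gonad markers were present in each of the 8 arrays: Wt1 averaged 3285 ± 233 in XX Ctnnb1KO gonads and 3702 ± 345 in XX control gonads, Gata4 2458 ± 146 in XX Ctnnb1KO gonads and 2121 ± 203 in XX control gonads and Nr5a1 1261 ± 101 in XX Ctnnb1KO gonads and 1393 ± 135 in XX control gonads, and none was called (adjusted p = 0.477, 0.293 and 0.501). The 3' to 5' signal ratio of the Gapdh control probe sets, a sign of RNA quality, ran from 2.418 to 2.618 in XX Ctnnb1KO and from 2.502 to 2.994 in XX control arrays.

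Between XX Ctnnb1KO and XX control gonads, 1144 of 11323 autosomal genes (10.1%) differed at an adjusted p under 0.05 (limma, Benjamini-Hochberg over 11787 genes). Of these, 547 were higher in XX Ctnnb1KO gonads (4.83%) and 597 were lower (5.27%). The counts of each gene list below are to be read beside these shares. Some genes belong to several lists, so the list counts are not independent. A difference of at least 2-fold was found for 120 of the rises and 118 of the falls. The median log2 fold change of all autosomal genes tested was 0.006. The 4 and 4 arrays did not overlap for 1473 autosomal genes (13.0%), among them 451 of the 547 rises and 529 of the 597 falls. Leaving out XX Ctnnb1KO replicate 4 left 924 calls, 428 higher and 496 lower. All fold changes are of signal + 16 on the log2 scale, which understates the change of dim genes, and errors are SE for fold changes and SD over arrays for signals. The p-values rest on the spread between pairs of gonads within a group, pooled over all 8 groups and 31 arrays. In gonads measured whole, fewer cells of a type and less RNA per cell cannot be told apart.

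The 12 largest rises were led by 3 genes whose XX control signal lay below the array medians of 149.1 to 168.3. Lefty2, a secreted antagonist of nodal, had signals of 2506, 1679.9, 1920.4 and 2267 in XX Ctnnb1KO gonads, against 68.8, 75.3, 64.2 and 90.2 in XX control gonads. Hsd17b3, the enzyme that makes testosterone from androstenedione, had signals of 590.5, 756, 691 and 692 in XX Ctnnb1KO gonads, against 25.2, 18.6, 5.93 and 12.1 in XX control gonads. The groups lay far apart in both genes (log2 fold changes 4.53 and 4.51, adjusted p = 2.24e-19 and 4.56e-14). Lefty1, the neighbour and relative of Lefty2, averaged 234 ± 27.4 in XX Ctnnb1KO gonads and 5.4 ± 5.74 in XX control gonads (log2 fold change 3.57 ± 0.32, adjusted p = 1.54e-09). The others were Ky (3.09), a muscle peptidase, Pmaip1 (2.83), a p53 target that promotes cell death, Myl1 (2.78), a myosin light chain of skeletal muscle, and Cphx3 (2.64), a homeobox gene. They also held Prune2 (2.49), Cnmd (2.45), which encodes the cartilage protein chondromodulin, Cyp11a1 (2.34), the first enzyme of steroid synthesis, Nppc (2.28), the precursor of C-type natriuretic peptide, and Cbln1 (2.22), a secreted synapse organiser. These are log2 fold changes, with adjusted p between 2.24e-19 and 1.44e-06 over the 12.

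Calb1, which encodes the calcium-binding protein calbindin, fell most, with signals of 30.2, 24.3, 21 and 42.1 in XX Ctnnb1KO gonads, against 1131, 831, 502 and 849 in XX control gonads. The groups were more than 10-fold apart without overlap (log2 fold change -4.18 ± 0.26, adjusted p = 4.41e-13). Follistatin (Fst), which binds and blocks activin, had signals of 240.2, 242, 213 and 194 in XX Ctnnb1KO gonads, against 3456, 3269.9, 2696 and 3144 in XX control gonads. It fell by 3.73 ± 0.13 on the log2 scale (adjusted p = 1.6e-19). The falls further held the neighbouring membrane protein genes Tmem171 (-3.29) and Tmem174 (-2.44), and Insyn2b (-2.72), whose protein belongs to inhibitory synapses. Dlx3 (-2.67) is a homeobox gene, Pla2r1 (-2.42) a receptor of secreted phospholipase A2, Thbs2 (-2.40) a matrix thrombospondin and Cntn4 (-2.38) a neural adhesion protein. Rmst (-2.25) is a long non-coding RNA, Lgr5 (-2.18) a receptor of R-spondins and Sorbs2 (-2.17) an adaptor at actin structures. Adjusted p over the 12 falls ran from 1.6e-19 to 3.2e-06. Each of these 24 genes kept its call when any 1 of the 8 arrays was left out. They were chosen for large changes without overlap between arrays, so a lost call was unlikely from the start. At the other end of the called genes, Troap, Cyb5b and Klhl25 lay just inside the threshold (adjusted p = 0.0493, 0.0494 and 0.0499) and Mthfd1, Tvp23a and Aurka just outside (0.0501, 0.0501 and 0.0504).

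**Figure D1:**
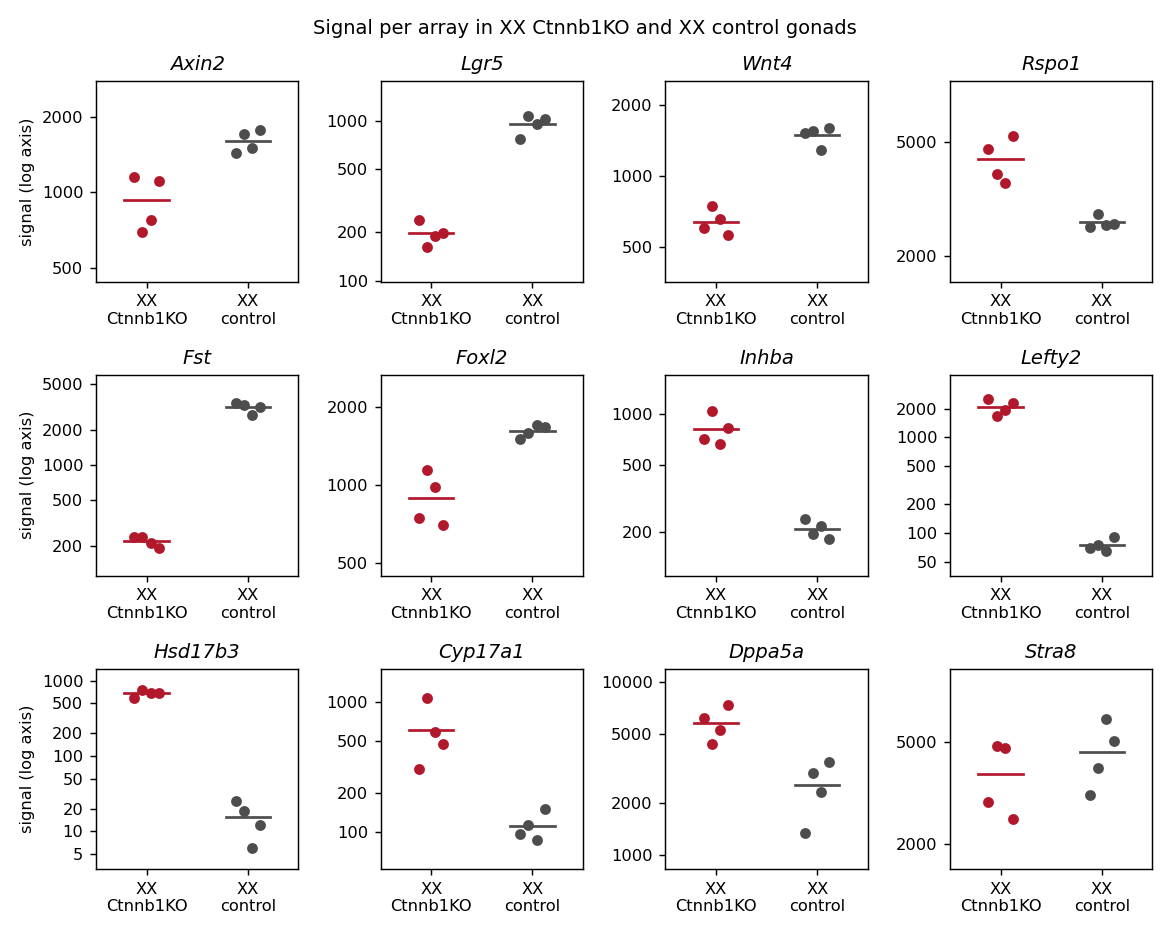
Signal per array (vertical log axis, a scale for each gene) of 12 genes in XX Ctnnb1KO gonads (red, left) and XX control gonads (grey, right), with 4 points a group and a line at the mean. The groups are apart for each gene except Stra8, where signals overlap, and the gap is widest for Lefty2, Hsd17b3 and Fst.

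Among genes of the WNT pathway itself, feedback and target genes inside the cell were often lower. Of 14 such genes tested, 7 fell and none rose, with a median log2 fold change of -0.36, against 5.27% of all autosomal genes that fell. Axin2, a scaffold of the complex that destroys β-catenin and a widely used readout of the pathway, had signals of 1155, 693, 775 and 1113 in XX Ctnnb1KO gonads, against 1438, 1698, 1498 and 1761 in XX control gonads. All XX Ctnnb1KO arrays lay below all XX control arrays, yet the remaining signal was more than a trace (log2 fold change -0.79 ± 0.12, adjusted p = 1.92e-05). Tnfrsf19, a member of the TNF receptor family, had signals of 568, 558, 569 and 659.6 in XX Ctnnb1KO gonads, against 2542, 2668, 2687 and 2872 in XX control gonads. Every array of 1 group lay well apart from those of the other (log2 fold change -2.16 ± 0.09, adjusted p = 3.01e-17). The homeobox genes Msx2 (-1.88, adjusted p = 0.000595) and Msx1 (-1.63, adjusted p = 7e-09) fell more than the Dishevelled-binding inhibitors Nkd1 (-0.91, adjusted p = 6.44e-06) and Nkd2 (-0.84, adjusted p = 5.22e-05), by log2 fold change. Lef1, a partner of β-catenin on DNA, was the seventh (log2 fold change -0.54 ± 0.18, adjusted p = 0.046), and its call was lost without XX Ctnnb1KO replicate 2 or 3 or XX control replicate 2, 3 or 4 (adjusted p = 0.0675 to 0.241). Tcf7l2, a further such partner, averaged 1788 ± 84.9 in XX Ctnnb1KO gonads and 1783 ± 61.7 in XX control gonads, Sp5 533 ± 67.7 in XX Ctnnb1KO gonads and 547 ± 89.6 in XX control gonads and the D cyclin Ccnd1 973 ± 106 in XX Ctnnb1KO gonads and 1106 ± 101 in XX control gonads, and these were not called (adjusted p = 0.992, 0.975 and 0.329).

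The ligands of the pathway moved both ways. Of 7 WNT and R-spondin genes tested, 3 fell and 1 rose, beside 5.27% of all autosomal genes called lower and 4.83% higher. Wnt4, the main WNT of the early ovary, had signals of 603, 745, 654 and 562 in XX Ctnnb1KO gonads, against 1525, 1550.2, 1284 and 1602 in XX control gonads. Its lowest control lay above every XX Ctnnb1KO array (log2 fold change -1.20 ± 0.11, adjusted p = 4.24e-09). Wnt6 averaged 1185 ± 138 in XX Ctnnb1KO gonads and 2127 ± 101 in XX control gonads (log2 fold change -0.84 ± 0.11, adjusted p = 2.61e-06), and Wnt2b 343 ± 22.7 in XX Ctnnb1KO gonads and 581 ± 103 in XX control gonads (log2 fold change -0.72 ± 0.14, adjusted p = 0.000598). Rspo1 went the other way, with signals of 4720.4, 3871, 3592 and 5223 in XX Ctnnb1KO gonads, against 2538, 2809, 2562 and 2594 in XX control gonads. Again the groups did not overlap (log2 fold change 0.71 ± 0.10, adjusted p = 5.58e-06). Wnt5a averaged 2650.3 ± 294 in XX Ctnnb1KO gonads and 2096 ± 447 in XX control gonads and was not called (adjusted p = 0.132). Without XX control replicate 1, 2 of the 7 rose.

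Of 13 receptors and membrane ligases, 3 fell and 1 rose, with a median log2 fold change of 0.05. Of all autosomal genes, 5.27% were called lower and 4.83% higher. Lgr5 had signals of 240.2, 162, 191 and 199 in XX Ctnnb1KO gonads, against 771, 1072, 953 and 1020.4 in XX control gonads, so that the highest XX Ctnnb1KO array was well under the lowest control (log2 fold change -2.18 ± 0.16, adjusted p = 1.6e-11). Rnf43, a ligase that removes WNT receptors from the membrane, fell as well, at 67.6 ± 20.6 in XX Ctnnb1KO gonads and 224 ± 5.25 in XX control gonads (log2 fold change -1.56 ± 0.23, adjusted p = 8.25e-06), while its relative Znrf3 averaged 450.1 ± 20.3 in XX Ctnnb1KO gonads and 549 ± 48.5 in XX control gonads and was not called (adjusted p = 0.0625). Ror2, a WNT5A receptor, fell by 0.56 on the log2 scale (adjusted p = 0.00409), and the frizzled receptor Fzd7 rose (log2 fold change 0.45 ± 0.10, adjusted p = 0.00279). Of 8 secreted inhibitors, Sostdc1, a BMP and WNT antagonist, rose (log2 fold change 1.27 ± 0.26, adjusted p = 0.000731), and Apcdd1 (log2 fold change -0.73 ± 0.16, adjusted p = 0.00218) and Dkk3 (log2 fold change -0.58 ± 0.16, adjusted p = 0.0143) fell. Dkk3 lost its call without XX Ctnnb1KO replicate 4 or XX control replicate 1 or 2 (adjusted p = 0.059 to 0.0718), and 2 inhibitors rose without XX control replicate 1 or 3 and 3 without XX Ctnnb1KO replicate 3. Of 11 catenin, cadherin and adherens junction genes, Jup, which encodes the relative of β-catenin called plakoglobin or γ-catenin, rose, at 395 ± 27.1 in XX Ctnnb1KO gonads and 269.5 ± 51.4 in XX control gonads (log2 fold change 0.54 ± 0.12, adjusted p = 0.00303). It was the only call among the 11, a share near the 10.1% of all autosomal genes called. Without XX control replicate 1, 2 of the 11 rose and 1 fell.

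TCF and LEF proteins bind short DNA motifs, and 2 versions, CTTTGAT and CTTTGAA, were searched for on both strands of the RefSeq promoter windows (250 bases before to 50 after a gene's start, build GRCm38.p6). A match was present for 42 of 453 genes that fell and had a window (9.27%), 28 of 430 that rose (6.51%), and 639 of 9172 autosomal genes tested (6.97%). Among genes that differed at least 2-fold, it was present for 10 of 82 that fell (12.2%) and 10 of 90 that rose (11.1%). Of all 27025 genes with a window, 9.88% held one. Shown here are the windows of 2 strong falls and of the chemokine Cxcl12, a strong rise, each with 1 match in capitals, to show that a match occurs on either side. Tnfrsf19 and Cntn4 have 2 windows each in the table, and the one that holds the match is printed.
Tnfrsf19, chr14:61037938-61038237, minus strand: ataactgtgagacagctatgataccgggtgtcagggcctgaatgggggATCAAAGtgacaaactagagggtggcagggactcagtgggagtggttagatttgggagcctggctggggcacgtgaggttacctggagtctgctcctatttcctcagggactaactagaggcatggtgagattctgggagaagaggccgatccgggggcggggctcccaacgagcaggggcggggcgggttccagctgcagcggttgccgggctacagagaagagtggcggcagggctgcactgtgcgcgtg
Cntn4, chr6:106118692-106118991, plus strand: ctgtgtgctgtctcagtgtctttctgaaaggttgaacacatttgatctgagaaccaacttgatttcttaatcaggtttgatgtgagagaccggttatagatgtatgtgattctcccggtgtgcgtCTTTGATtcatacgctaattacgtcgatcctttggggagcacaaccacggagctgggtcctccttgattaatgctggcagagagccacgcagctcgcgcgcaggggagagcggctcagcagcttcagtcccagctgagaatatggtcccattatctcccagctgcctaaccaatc
Cxcl12, chr6:117168285-117168584, plus strand: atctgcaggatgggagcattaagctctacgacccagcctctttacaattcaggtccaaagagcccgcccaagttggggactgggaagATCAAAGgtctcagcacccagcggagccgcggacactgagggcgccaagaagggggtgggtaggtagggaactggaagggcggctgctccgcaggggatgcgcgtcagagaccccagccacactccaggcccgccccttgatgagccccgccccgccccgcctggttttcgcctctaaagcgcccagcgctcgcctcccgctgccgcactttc
In Tnfrsf19 and Cxcl12 the match reads ATCAAAG, the reverse complement of CTTTGAT, starting at base 49 and base 88 of the window, and in Cntn4 it reads CTTTGAT at base 126. A match describes the letters and does not show binding.

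The ovarian somatic programme fell broadly. Of 21 pregranulosa and ovary genes tested, 16 fell and 1 rose, with a median log2 fold change of -0.87, and the count of falls was the same whichever array was left out. The mean log2 level of the list, less the XX control mean, was -0.87, -1.02, -0.93 and -0.94 in XX Ctnnb1KO replicates 1 to 4, against 0.00, 0.06, -0.05 and -0.02 in XX control replicates 1 to 4. The 2 groups were thus far apart and each was tight. Foxl2, the transcription factor that keeps granulosa cells from turning into Sertoli cells, had signals of 742, 1137, 977 and 698 in XX Ctnnb1KO gonads, against 1500.4, 1577, 1693 and 1669.6 in XX control gonads. It fell, though to a level well above the 50.9 ± 9.33 of XY control gonads (log2 fold change -0.87 ± 0.15, adjusted p = 0.000133). Irx3, an Iroquois homeobox factor of pregranulosa cells, averaged 666 ± 95.7 in XX Ctnnb1KO gonads and 1625 ± 48.3 in XX control gonads (log2 fold change -1.28 ± 0.17, adjusted p = 1.28e-06), and its neighbour Irx5 83.9 ± 19 in XX Ctnnb1KO gonads and 177 ± 6.69 in XX control gonads (log2 fold change -0.97 ± 0.17, adjusted p = 0.000158). Kitl, the ligand through which granulosa cells support germ cells, averaged 2309.7 ± 213 in XX Ctnnb1KO gonads and 4970 ± 656 in XX control gonads (log2 fold change -1.10 ± 0.11, adjusted p = 1.33e-08). Bmp2 (-0.98, adjusted p = 7.93e-06), Emx2 (-1.07, adjusted p = 1.87e-06), Runx1 (-0.70, adjusted p = 0.00118) and the cell cycle inhibitor Cdkn1b (-0.68, adjusted p = 3.43e-05) fell as well. The exceptions were Rspo1, which rose, and 4 genes that were not called, among them Lhx9 at 2651 ± 249 in XX Ctnnb1KO gonads and 2553 ± 319 in XX control gonads and Nr2f2 at 5912 ± 241 in XX Ctnnb1KO gonads and 5009 ± 562 in XX control gonads (adjusted p = 0.859 and 0.0779). Without XX control replicate 1, 2 of the list rose.

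**Figure D2:**
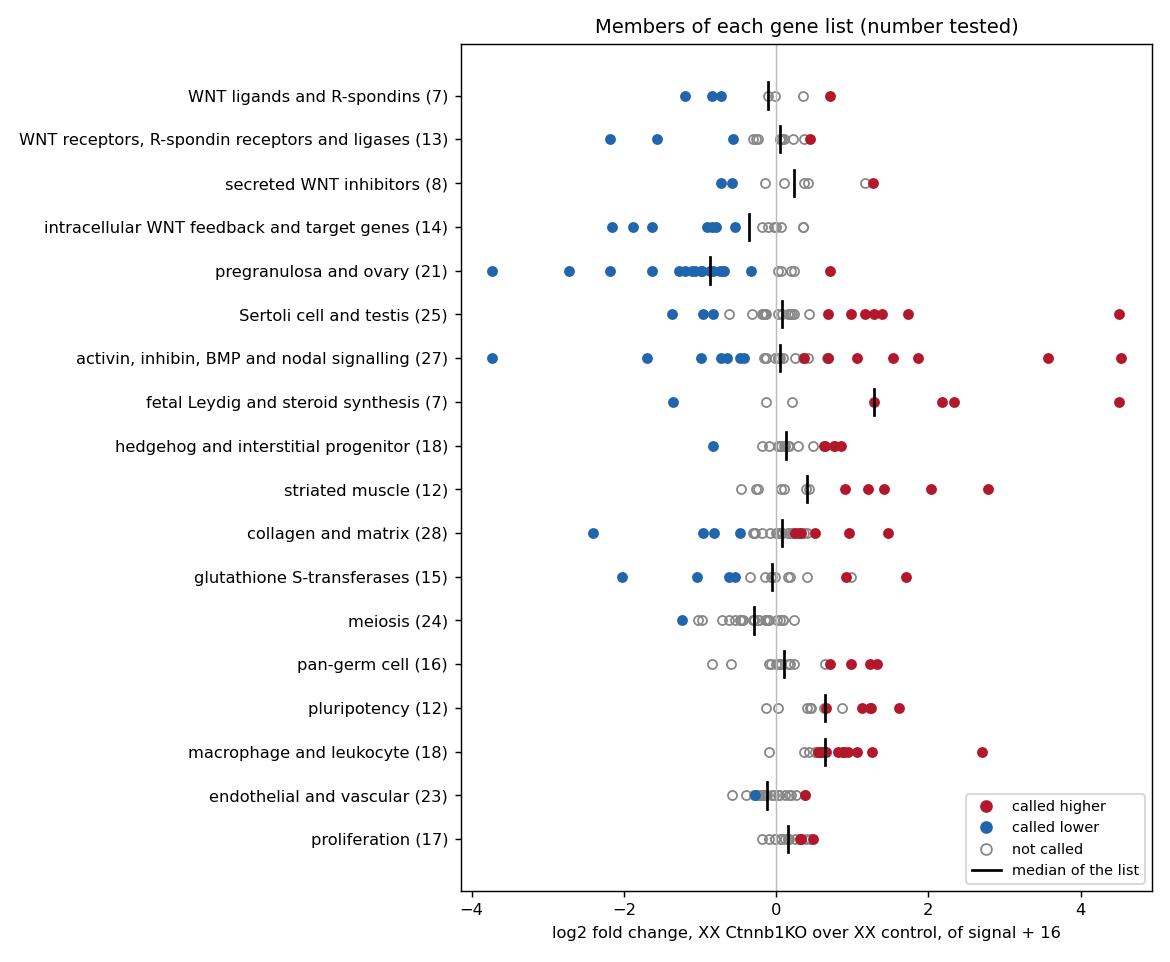
Log2 fold change (XX Ctnnb1KO over XX control, of signal + 16) of each autosomal gene tested in 18 gene lists, with the number tested in brackets; filled points are called higher (red) or lower (blue), open points are not called, and the black bar is the median. Pregranulosa genes sit mostly left of 0 and steroid, pluripotency and macrophage genes mostly right, while the Sertoli and activin lists spread both ways.

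Sertoli cell and testis genes split: of 25 tested, 7 rose, 3 fell and 15 were not called, beside 4.83% of all autosomal genes called higher and 5.27% lower, with a median log2 fold change of 0.08. The same 25 genes had a median of 2.33 in XY control over XX Sox9KO gonads. The genes that rose were Hsd17b3, Ptgds (1.73, adjusted p = 1.21e-06), the prostaglandin D synthase, Dhh (1.39, adjusted p = 3.68e-07), the hedgehog ligand of Sertoli cells, Vnn1 (1.29, adjusted p = 1.38e-07), a pantetheinase, Cst9 (1.17, adjusted p = 4.07e-07), a cystatin, Inhbb and Gdnf. Dhh averaged 142 ± 23.3 in XX Ctnnb1KO gonads and 46 ± 20.4 in XX control gonads, beside 2248 ± 164 in XY control gonads, and Ptgds 839 ± 245 in XX Ctnnb1KO gonads and 244 ± 83.5 in XX control gonads, beside 8284 ± 1100.3 (SD, n = 4 each). Both thus stayed far below their level in the testis. Gdnf, a niche factor of germ cells, was called at 0.98, adjusted p = 0.0299, and lost the call without XX Ctnnb1KO replicate 2 or 4 or XX control replicate 1, 2 or 4 (adjusted p = 0.0574 to 0.145). The regulators Sox8 (109 ± 34.7 in XX Ctnnb1KO gonads and 107 ± 31.7 in XX control gonads), Amh (11.9 ± 0.612 in XX Ctnnb1KO gonads and 18.7 ± 20 in XX control gonads), Fgf9 (93.1 ± 15.9 in XX Ctnnb1KO gonads and 87.9 ± 22.2 in XX control gonads) and Dmrt1 (566 ± 190 in XX Ctnnb1KO gonads and 491 ± 89.9 in XX control gonads) were not called (adjusted p = 0.979, 0.87, 0.863 and 0.853). Aard, a Sertoli cell gene of alanine- and arginine-rich domain, fell, with signals of 453, 582, 554 and 404 in XX Ctnnb1KO gonads, against 1334, 1185, 1331 and 1339 in XX control gonads. Its arrays did not overlap (log2 fold change -1.37 ± 0.13, adjusted p = 3.01e-09), and the cartilage collagen Col9a3 (-0.96, adjusted p = 0.00271) and the FGF receptor Fgfr2 (-0.83, adjusted p = 2.21e-07) fell as well. Fgfr2 is also a member of the pregranulosa and ovary list, so its fall is counted in both.

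The activin, inhibin, BMP and nodal list split evenly, with 7 rises and 7 falls among 27 genes tested and a median log2 fold change of 0.05. The subunits of activin and inhibin rose while their blocker Fst fell. Inhba, which encodes the subunit of activin A, had signals of 709, 1040, 662 and 828 in XX Ctnnb1KO gonads, against 238, 195, 217 and 180.3 in XX control gonads. No XX Ctnnb1KO array came near a control (log2 fold change 1.87 ± 0.15, adjusted p = 8.21e-11). The inhibin subunit Inha averaged 1203 ± 279.9 in XX Ctnnb1KO gonads and 559 ± 30.3 in XX control gonads (log2 fold change 1.06 ± 0.12, adjusted p = 1.35e-07), and Inhbb, the subunit of activin B, 2948 ± 533 in XX Ctnnb1KO gonads and 1835 ± 329.6 in XX control gonads (log2 fold change 0.68 ± 0.13, adjusted p = 0.000305). Nodal, the ligand that Lefty1 and Lefty2 restrain, averaged 255 ± 74.9 in XX Ctnnb1KO gonads and 75.8 ± 18 in XX control gonads (log2 fold change 1.54 ± 0.25, adjusted p = 3.46e-05), and its co-receptor Tdgf1 36.6 ± 22.7 in XX Ctnnb1KO gonads and 16.9 ± 15.1 in XX control gonads without a call (adjusted p = 0.286). The receptor Acvr1 rose slightly (0.37, adjusted p = 0.00699), and its call was lost without XX control replicate 3 (adjusted p = 0.0558).

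On the BMP side, the falls were those of a ligand, a receptor and their target genes. Bmpr1b, a type I receptor, averaged 68.5 ± 17.9 in XX Ctnnb1KO gonads and 253 ± 41.9 in XX control gonads (log2 fold change -1.69 ± 0.19, adjusted p = 9.69e-08), beside the fall of Bmp2. The Id genes, inhibitors of differentiation that BMP signals switch on, moved together. Id3 averaged 1426 ± 85.8 in XX Ctnnb1KO gonads and 2363 ± 307 in XX control gonads (log2 fold change -0.72 ± 0.12, adjusted p = 4.43e-05), Id2 971 ± 89.5 in XX Ctnnb1KO gonads and 1571 ± 429 in XX control gonads (log2 fold change -0.65 ± 0.15, adjusted p = 0.00215) and Id1 499.6 ± 84.2 in XX Ctnnb1KO gonads and 671 ± 95.2 in XX control gonads (log2 fold change -0.42 ± 0.13, adjusted p = 0.031). Id1 lost its call without XX Ctnnb1KO replicate 1 or 4 or XX control replicate 3 or 4 (adjusted p = 0.103 to 0.14). Amhr2, the receptor of anti-Müllerian hormone, fell too (-0.47, adjusted p = 0.0111), and not without XX control replicate 4 (adjusted p = 0.0601). Bmp4 averaged 129 ± 43.9 in XX Ctnnb1KO gonads and 94.1 ± 13.1 in XX control gonads and was not called (adjusted p = 0.329).

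Steroid synthesis genes mostly rose in XX Ctnnb1KO gonads. Of 7 fetal Leydig and steroid synthesis genes tested, 4 rose, 1 fell and 2 were not called, at a median log2 fold change of 1.28; Hsd17b3 is counted here and among the Sertoli genes. Cyp17a1, which makes androgen precursors, had signals of 309, 1074, 593 and 474 in XX Ctnnb1KO gonads, against 95.9, 114, 87.3 and 151 in XX control gonads. Replicate 2 of XX Ctnnb1KO was the highest, and all 4 exceeded the controls (log2 fold change 2.18 ± 0.25, adjusted p = 1.8e-07). Cyp11a1, which cleaves the cholesterol side chain, had signals of 121, 472, 254 and 132 in XX Ctnnb1KO gonads, against 16.8, 23.3, 58.4 and 26.3 in XX control gonads. The spread between XX Ctnnb1KO arrays was wide, but no control reached them (log2 fold change 2.34 ± 0.31, adjusted p = 1.44e-06). Star, which carries cholesterol into mitochondria, averaged 732 ± 68.3 in XX Ctnnb1KO gonads and 291 ± 25.4 in XX control gonads (log2 fold change 1.28 ± 0.12, adjusted p = 2.75e-09). In contrast Hsd3b1, which makes progesterone and androstenedione, had signals of 337, 815, 501 and 461 in XX Ctnnb1KO gonads, against 1570.1, 1275, 989 and 1451 in XX control gonads, all of them under the controls (log2 fold change -1.35 ± 0.17, adjusted p = 1.04e-06). The cholesterol receptor Scarb1 averaged 727 ± 67.5 in XX Ctnnb1KO gonads and 795 ± 52.5 in XX control gonads and was not called (adjusted p = 0.465). XY control gonads had 13128 ± 1534 for Cyp17a1 and 7902 ± 276 for Cyp11a1. Of 5 adrenal cortex genes, Cyp11b1, the 11β-hydroxylase, rose, at 65.9 ± 43.2 in XX Ctnnb1KO gonads and 10.7 ± 3.39 in XX control gonads (log2 fold change 1.49 ± 0.29, adjusted p = 0.000553). It was the only call among the 5, beside 10.1% of all autosomal genes called. None of 13 cholesterol synthesis and uptake genes was called (limma). Of the 13, 4 had an unadjusted p under 0.05, beside 2307 of all 11323 autosomal genes tested. All 13 were called higher in XY control than in XX Sox9KO gonads, beside 17.0% of all autosomal genes. Without XX control replicate 1, 1 of the 13 rose and 1 fell.

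The interstitial and muscle-like genes shifted in parts. Of 18 hedgehog and interstitial progenitor genes, 4 rose and 1 fell, beside 4.83% of all autosomal genes called higher and 5.27% lower. Jag1, a Notch ligand, averaged 1019 ± 155 in XX Ctnnb1KO gonads and 554 ± 39.4 in XX control gonads (log2 fold change 0.85 ± 0.11, adjusted p = 8.55e-07), and the Notch target Heyl 436 ± 20.4 in XX Ctnnb1KO gonads and 252 ± 24.5 in XX control gonads (log2 fold change 0.76 ± 0.12, adjusted p = 1.84e-05). Pdgfra, the receptor of interstitial precursors (0.64, adjusted p = 0.000127), and Gli2, a hedgehog effector (0.63, adjusted p = 0.00439), rose too, and the hedgehog co-receptor Boc fell (-0.83, adjusted p = 2.8e-07). The hedgehog targets Ptch1 (2188 ± 209 in XX Ctnnb1KO gonads and 2088 ± 241 in XX control gonads) and Hhip (35.9 ± 13 in XX Ctnnb1KO gonads and 38.1 ± 4.76 in XX control gonads) were not called (adjusted p = 0.735 and 0.887). Their fellow target Gli1 averaged 92.3 ± 37.1 in XX Ctnnb1KO gonads and 45.1 ± 8.92 in XX control gonads and was not called (log2 fold change 0.77 ± 0.29, adjusted p = 0.0927), except higher without XX Ctnnb1KO replicate 3 (adjusted p = 0.0332). Of 7 peritubular myoid and smooth muscle genes, smooth muscle actin Acta2 (0.59, adjusted p = 0.0006) and the myosin Myh11 (0.67, adjusted p = 9.76e-05) rose, and the myosin light chain Myl9 fell (-0.84, adjusted p = 1.71e-06).

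Part of the striated muscle list was higher. Of 19 listed, 12 were tested and 5 rose with none lower, at a median log2 fold change of 0.41, and the count was 5 whichever array was left out. Myl1 had signals of 1063, 834, 1101 and 1354 in XX Ctnnb1KO gonads, against 123, 109, 165 and 184 in XX control gonads. The least XX Ctnnb1KO array was several times the highest control (log2 fold change 2.78 ± 0.27, adjusted p = 5.99e-09). Fabp3, the fatty acid carrier of heart and muscle, averaged 2228 ± 389 in XX Ctnnb1KO gonads and 542 ± 162 in XX control gonads (log2 fold change 2.04 ± 0.18, adjusted p = 6.4e-10). The troponins Tnnc1 (log2 fold change 1.42 ± 0.28, adjusted p = 0.000484) and Tnnt2 (log2 fold change 1.21 ± 0.27, adjusted p = 0.00208) and the calcium store protein Casq2 (log2 fold change 0.91 ± 0.20, adjusted p = 0.00157) completed the list. Outside the list, and picked after their values were seen, the cardiac sarcomere genes Mybpc3 (1.45, adjusted p = 3.8e-05) and Myh6 (1.22, adjusted p = 0.000388) rose as well. The summed signal of the 12 ran from 6311 to 8531 in XX Ctnnb1KO and from 3223 to 4827 in XX control arrays. Bright genes weigh most in such a sum. The mean log2 level of the 12, less the XX control mean, overlapped between the groups. It was 0.26 in XX Ctnnb1KO replicate 1 and 0.36 in XX control replicate 4. The other XX Ctnnb1KO arrays, at 0.69 to 1.05, lay above every control. The muscle regulators Myod1 and Myog did not have enough signal to be tested.

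Germ cells keep their own Ctnnb1, and their meiosis and pluripotency genes differed widely between arrays of 1 group. At this stage XX germ cells leave pluripotency and enter meiosis. Of 24 meiosis genes tested, 1 fell and none rose, at a median log2 fold change of -0.29, or -0.10 without XX Ctnnb1KO replicate 4. This is no larger a share than the 5.27% of all autosomal genes called lower. The one that fell was Rec8, the meiotic cohesin subunit, with 1182 ± 360 in XX Ctnnb1KO gonads and 2713 ± 210.4 in XX control gonads (log2 fold change -1.23 ± 0.16, adjusted p = 1.04e-06). Stra8, the gatekeeper of meiosis, had signals of 2928, 4839, 4741 and 2503 in XX Ctnnb1KO gonads, against 3128, 3962, 6183 and 5079 in XX control gonads, which overlap (log2 fold change -0.30 ± 0.32, adjusted p = 0.678). Sycp3, a protein of the synaptonemal complex, averaged 3461 ± 1990.4 in XX Ctnnb1KO gonads and 4513 ± 1460.4 in XX control gonads and was not called (adjusted p = 0.458). Without XX Ctnnb1KO replicate 2, 2 meiosis genes fell. Across the 24 genes, the mean log2 level less the XX control mean was -0.65, 0.32, -0.08 and -0.96 in XX Ctnnb1KO replicates 1 to 4, against -0.24, -0.33, 0.55 and 0.02 in XX control replicates 1 to 4. XX Ctnnb1KO replicates 1 and 4 were the lowest of the 8 and replicate 2 was second highest.

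Among the XX Ctnnb1KO arrays, the pluripotency means ran in the opposite order. The mean over 12 genes was 1.01, 0.04, 0.69 and 1.13 in XX Ctnnb1KO replicates 1 to 4, against -0.49, 0.29, -0.23 and 0.43 in XX control replicates 1 to 4, so that XX Ctnnb1KO replicates 4 and 1 were the highest and replicate 2 was within the control range. Of the 12, 5 rose and none fell, at a median log2 fold change of 0.64. Dppa5a, an RNA-binding protein of pluripotent cells, had signals of 6196, 4346, 5266 and 7283 in XX Ctnnb1KO gonads, against 1344, 2973, 2307 and 3447 in XX control gonads. All 4 XX Ctnnb1KO arrays exceeded the controls (log2 fold change 1.25 ± 0.29, adjusted p = 0.00317). Klf4, a reprogramming factor also made by somatic cells, averaged 485 ± 49.5 in XX Ctnnb1KO gonads and 304 ± 27.5 in XX control gonads (log2 fold change 0.65 ± 0.11, adjusted p = 4.19e-05). These 2 kept their calls whichever array was left out. Nanog had signals of 740.4, 291, 514 and 866 in XX Ctnnb1KO gonads, against 99.1, 319, 99.9 and 252 in XX control gonads, which overlap (log2 fold change 1.62 ± 0.45, adjusted p = 0.0149), and lost its call without XX Ctnnb1KO replicate 1 or 4 or XX control replicate 1 or 3 (adjusted p = 0.0539 to 0.0685). Pou5f1 (Oct4) averaged 1469.6 ± 329.9 in XX Ctnnb1KO gonads and 639.8 ± 223 in XX control gonads (log2 fold change 1.23 ± 0.35, adjusted p = 0.0205) and lost it without XX Ctnnb1KO replicate 1 or 4 or XX control replicate 1 (adjusted p = 0.0632 to 0.0998), and Tcl1 (1.13, adjusted p = 0.0338) without XX Ctnnb1KO replicate 1, 3 or 4 or XX control replicate 1, 2 or 3 (adjusted p = 0.061 to 0.127). Hence 2 of 12 were left without XX Ctnnb1KO replicate 1 or 4 or XX control replicate 1, and 3 without XX control replicate 3.

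General germ cell genes gave 4 rises among 16 tested, at a median of 0.11. These were Dppa3 (0.98, adjusted p = 0.0295), Pou5f1, Itgb3 (1.32, adjusted p = 0.0327) and the Tudor gene Tdrd1 (0.71, adjusted p = 0.0336). None of the 16 was called without XX Ctnnb1KO replicate 1 or 4 or XX control replicate 1, and 1 without XX Ctnnb1KO replicate 3. Ddx4, the vasa helicase of all germ cells at this stage, averaged 2374 ± 259 in XX Ctnnb1KO gonads and 2090 ± 149.8 in XX control gonads, and Dazl 5203 ± 159 in XX Ctnnb1KO gonads and 4661 ± 1663 in XX control gonads, with no call (adjusted p = 0.656 and 0.663). Of 9 genes of fetal male germ cells, the 3 that rose were Lefty1, Lefty2 and Nodal, while Piwil4 averaged 279 ± 94 in XX Ctnnb1KO gonads and 255 ± 51.8 in XX control gonads, beside 1086 ± 584 in XY control gonads, and was not called (adjusted p = 0.951). The mean log2 level of the 9, less the XX control mean, ran from 1.09 to 1.21 in XX Ctnnb1KO arrays. In XX control arrays it ran from -0.3 to 0.2, without overlap. The median log2 fold change of the 9 was 0.43, and Lefty1 and Lefty2 weigh most in the mean.

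**Figure D3:**
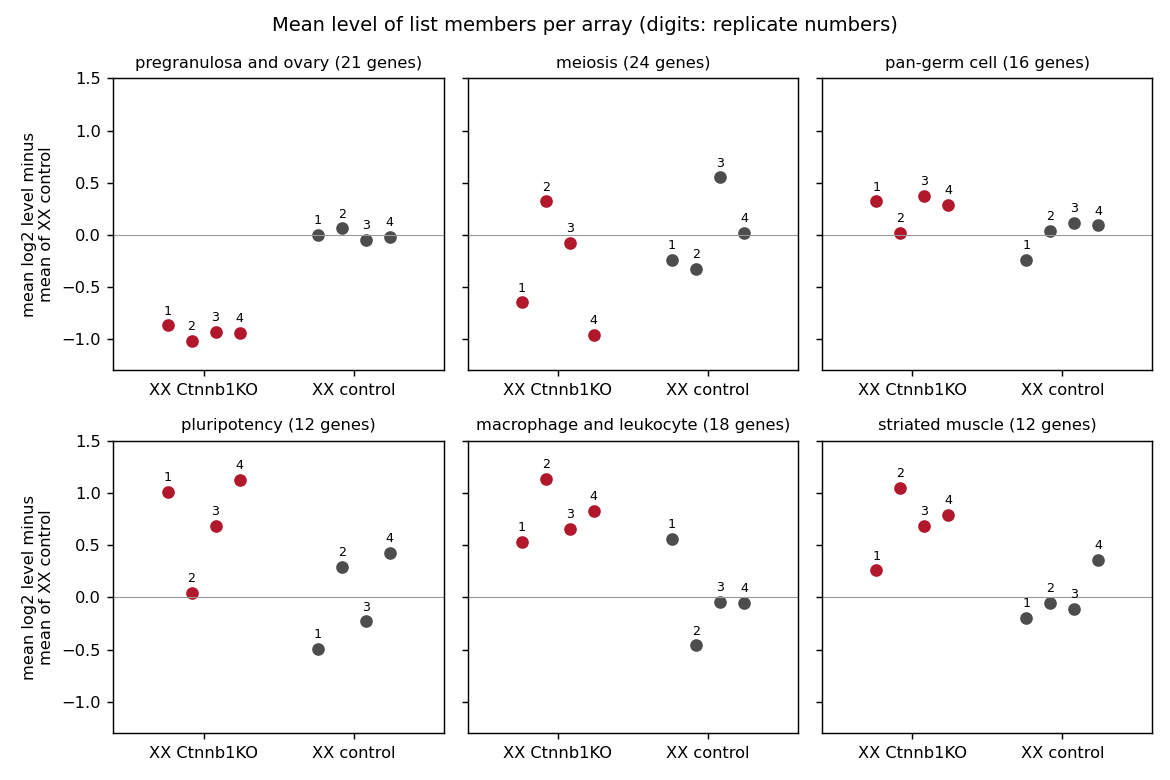
Mean log2 level of the tested members of 6 gene lists in each of the 8 arrays, less the XX control mean (vertical axis, log2 units), with XX Ctnnb1KO arrays on the left (red), XX control arrays on the right (grey) and replicate numbers above the points. The pregranulosa means fall into 2 tight groups (-1.02 to -0.87 in XX Ctnnb1KO and -0.05 to 0.06 in XX control). The meiosis, pan-germ cell, pluripotency, macrophage and striated muscle means spread and overlap.

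Macrophage and leukocyte genes were higher in the XX Ctnnb1KO arrays, but the count rested on single arrays. Of 18 tested, 12 rose and none fell, at a median log2 fold change of 0.64, and 5 rose without XX control replicate 2 and 6 without XX Ctnnb1KO replicate 2. The mean over the 18 was 0.53, 1.14, 0.66 and 0.83 in XX Ctnnb1KO replicates 1 to 4, against 0.56, -0.46, -0.04 and -0.05 in XX control replicates 1 to 4, where XX control replicate 1 was above XX Ctnnb1KO replicate 1. Their summed signal ran from 10868 to 16991 in XX Ctnnb1KO and from 5859 to 11471 in XX control arrays. Ctss, a cathepsin of antigen-presenting cells, averaged 1085 ± 202 in XX Ctnnb1KO gonads and 558 ± 112 in XX control gonads (log2 fold change 0.94 ± 0.16, adjusted p = 0.000103), and Cd52, a leukocyte surface peptide, 269.9 ± 80.1 in XX Ctnnb1KO gonads and 102 ± 21.5 in XX control gonads (log2 fold change 1.26 ± 0.23, adjusted p = 0.000173). C1qc, a complement subunit (1.06, adjusted p = 0.00716), Tyrobp (0.81, adjusted p = 0.00175), an adaptor of myeloid receptors, and Aif1 (0.88, adjusted p = 0.006) followed. The pan-leukocyte gene Ptprc averaged 153 ± 18.4 in XX Ctnnb1KO gonads and 110.4 ± 54.1 in XX control gonads and was not called (adjusted p = 0.162). Of 23 endothelial and vascular genes, the arterial ligand Efnb2 rose (0.38, adjusted p = 0.0015) and endomucin, Emcn, fell (-0.28, adjusted p = 0.0242), the last not without XX Ctnnb1KO replicate 3 or 4 or XX control replicate 3 or 4 (adjusted p = 0.0516 to 0.126). These 2 calls among 23 are no larger a share than the 10.1% of all autosomal genes called. Cdh5 and Pecam1, which mark endothelium, averaged 876 ± 180.3 in XX Ctnnb1KO gonads and 771 ± 102 in XX control gonads and 663 ± 121 in XX Ctnnb1KO gonads and 506 ± 87.3 in XX control gonads, without a call (adjusted p = 0.516 and 0.101). None of 7 erythroid genes was called (limma), and none had an unadjusted p under 0.05. The part of blood cells and macrophages in the other results was not tested.

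Genes of the mesonephric tubules and the surface epithelium were also followed, since both tissues border the gonad. The counts in this paragraph stand beside 4.83% of all autosomal genes called higher and 5.27% lower. Of 7 mesonephric genes, the kidney tubule regulator Lhx1 rose, at 194 ± 90.6 in XX Ctnnb1KO gonads and 29.4 ± 16 in XX control gonads (log2 fold change 2.15 ± 0.29, adjusted p = 2.85e-06). Pax8, a factor of the same tubules, fell, at 54.3 ± 24.6 in XX Ctnnb1KO gonads and 204 ± 22.8 in XX control gonads (log2 fold change -1.70 ± 0.25, adjusted p = 1e-05), as did Emx2. The summed signal of the 7 ran from 6591 to 7146 in XX Ctnnb1KO and from 8064 to 10094 in XX control arrays. This sum includes Wt1 and Nr5a1, given above as somatic gonad markers, and Emx2, counted among the ovary genes. It is therefore no measure of mesonephric tissue alone. Of 12 surface epithelium genes, 4 rose and 2 fell. The mucin Muc16 (0.72, adjusted p = 0.000112) and Rspo1 rose and keratin 8, Krt8 (-0.77, adjusted p = 0.000705), fell with every array left out, and the remaining 3 calls were lost in at least 1 such fit. Without any 1 of XX Ctnnb1KO replicates 3 and 4 and XX control replicates 1, 2 and 4, 2 rose. Without XX Ctnnb1KO replicate 1 or 4 or XX control replicate 3 or 4, 1 fell. Of 3 neural and neural crest genes tested, the neurotrophin receptor Ngfr rose (0.67, adjusted p = 0.000548).

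The extracellular matrix changed in single components. Of 28 collagen and matrix genes, 6 rose and 4 fell, at a median of 0.08, beside 4.83% of all autosomal genes called higher and 5.27% lower. Tenascin C, Tnc, averaged 998 ± 108 in XX Ctnnb1KO gonads and 352 ± 47.6 in XX control gonads (log2 fold change 1.47 ± 0.14, adjusted p = 3.01e-09), and fibulin 2, Fbln2, 317 ± 57.9 in XX Ctnnb1KO gonads and 153 ± 10.1 in XX control gonads (log2 fold change 0.96 ± 0.19, adjusted p = 0.000444). Thbs2 averaged 279 ± 87.5 in XX Ctnnb1KO gonads and 1499 ± 86.8 in XX control gonads (log2 fold change -2.40 ± 0.15, adjusted p = 1.29e-12) and fibrillin 2, Fbn2, 2444 ± 118 in XX Ctnnb1KO gonads and 4390.3 ± 910.3 in XX control gonads (log2 fold change -0.82 ± 0.12, adjusted p = 8.03e-06). The basement membrane collagen Col4a1 rose by less (0.33, adjusted p = 0.00556).

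Glutathione S-transferases, which attach glutathione to reactive compounds and steroids, moved both ways. Gstm6, of the mu class, had signals of 340, 327, 436 and 331 in XX Ctnnb1KO gonads, against 1448, 1473, 1531 and 1536 in XX control gonads. The gap between the groups was wide (log2 fold change -2.02 ± 0.11, adjusted p = 2.24e-14). Gstm7 (-1.04, adjusted p = 6.64e-07), Gstm2 (-0.62, adjusted p = 5.38e-06) and Gstm1 (-0.54, adjusted p = 0.00064) fell beside it, and the alpha class genes Gsta2 (1.71, adjusted p = 1.7e-07) and Gsta3 (0.92, adjusted p = 0.000196) rose. Gstm3, also of the mu class, averaged 544 ± 189 in XX Ctnnb1KO gonads and 261 ± 79.2 in XX control gonads and was not called (log2 fold change 0.98 ± 0.35, adjusted p = 0.0721), except higher without XX Ctnnb1KO replicate 2 (adjusted p = 0.0167). In all 2 of 15 tested rose and 4 fell, beside 4.83% of all autosomal genes called higher and 5.27% lower. Probe sets of such close paralogs may share transcripts, so the members are not independent.

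Signalling genes outside these families gave a few strong rises. The counts in this paragraph stand beside 4.83% of all autosomal genes called higher and 5.27% lower. Cxcl12, the chemokine that guides germ cells and whose promoter window is printed above, had signals of 1971, 3443, 2446 and 2147 in XX Ctnnb1KO gonads, against 900.4, 537, 799 and 813 in XX control gonads. All XX Ctnnb1KO arrays were above the controls (log2 fold change 1.69 ± 0.17, adjusted p = 7e-09). Its scavenging receptor Ackr3 rose as well (0.50, adjusted p = 0.0134), so 2 of 5 chemokine genes rose, and Ackr3 was lost without XX Ctnnb1KO replicate 2 or XX control replicate 4 (adjusted p = 0.0796 to 0.0834). Of 12 FGF genes, Fgf18 (log2 fold change 1.28 ± 0.13, adjusted p = 2.27e-08) and the FGF-induced factor Etv5 (log2 fold change 0.98 ± 0.20, adjusted p = 0.000607) rose and Fgfr2 fell. Of 11 immediate early genes, Egr1 (log2 fold change 1.54 ± 0.12, adjusted p = 8.21e-11), Klf2 (0.79, adjusted p = 2.77e-05), Egr2 (0.84, adjusted p = 0.00389) and Nr4a1 (0.59, adjusted p = 0.021) rose, the last not without XX Ctnnb1KO replicate 3 or 4 or XX control replicate 3 or 4 (adjusted p = 0.0555 to 0.102). Of 10 retinoic acid genes, the synthesising enzymes Aldh1a3 (-1.17, adjusted p = 7.12e-06) and Aldh1a1 (-0.33, adjusted p = 0.0023) fell. The reductase Dhrs3 rose (0.34, adjusted p = 0.0272), and lost its call without XX Ctnnb1KO replicate 2 or 4 or XX control replicate 1 or 2 (adjusted p = 0.0831 to 0.131). Without XX control replicate 1, 4 of the 10 fell. Of 13 insulin and IGF genes, Igf1r (0.34, adjusted p = 0.000693) rose and Igfbp2 (-0.76, adjusted p = 6.55e-05) fell, and Igfbp7 rose in a call lost without XX Ctnnb1KO replicate 2, 3 or 4 or XX control replicate 1, 2 or 4 (adjusted p = 0.0549 to 0.2). Without XX Ctnnb1KO replicate 1 or XX control replicate 1, 2 of the 13 fell.

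Cell cycle genes moved modestly. The counts here stand beside 4.83% of all autosomal genes called higher and 5.27% lower. Of 12 inhibitors and D cyclins, 4 fell: the CDK inhibitors Cdkn1c (-0.82, adjusted p = 4.64e-05), Cdkn1b and Cdkn1a (-0.54, adjusted p = 0.008) and the cyclin Ccnd2 (-0.39, adjusted p = 0.00925), the last not without XX Ctnnb1KO replicate 3 or XX control replicate 4 (adjusted p = 0.055 to 0.0567). Without XX Ctnnb1KO replicate 2 or XX control replicate 1, 1 of the 12 rose. Of 17 proliferation genes 3 rose, at a median of 0.16, with Cdk1 first (0.49, adjusted p = 0.00458), and Mki67 averaged 8833 ± 441 in XX Ctnnb1KO gonads and 8466 ± 367 in XX control gonads with no call (adjusted p = 0.762). Of 9 apoptosis and p53 target genes, Pmaip1, Mdm2 (0.41, adjusted p = 0.0115) and Bcl2l1 (0.53, adjusted p = 0.0122) rose and the survival gene Bcl2 fell (-0.44, adjusted p = 0.000157). Mdm2 lost its call without XX Ctnnb1KO replicate 4 or XX control replicate 1 (adjusted p = 0.0598 to 0.0656) and Bcl2l1 without XX Ctnnb1KO replicate 2 or XX control replicate 2 (adjusted p = 0.0578 to 0.074). Of 12 glycolysis and hypoxia genes, Egln3 (0.65, adjusted p = 0.0076) and Ankrd37 (0.48, adjusted p = 0.0164) rose, and Ankrd37 not without XX Ctnnb1KO replicate 2 or XX control replicate 2 (adjusted p = 0.0673 to 0.0682). Without XX control replicate 1, 1 of the 12 fell. Of 10 heat shock genes, the chaperone Hsph1 rose (0.33, adjusted p = 0.0436), in a call lost without XX Ctnnb1KO replicate 1, 2, 3 or 4 or XX control replicate 1, 2 or 3 (adjusted p = 0.0514 to 0.15), and 1 of 10 is near the 10.1% of all autosomal genes.

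The same loss was measured a second time in arrays that the fold changes above do not use: XX DKO gonads (Sf1-cre+/Tg, Ctnnb1f/f, Sox9f/f) against XX Sox9KO gonads (Sf1-cre+/Tg, Ctnnb1+/f, Sox9f/f), with 4 arrays each. There 844 autosomal genes were called higher in XX DKO (7.45%) and 689 lower (6.08%). Of the 547 genes that rose in XX Ctnnb1KO gonads, 543 had the same sign in XX DKO over XX Sox9KO, and 432 were called in that direction, which is 79.0% of the 547 and 51.2% of the 844. Of the 597 falls, 587 had the same sign and 445 were called, 74.5% of the 597 and 64.6% of the 689. None was called in the opposite direction. Both sets of calls rest on 1 estimate of each gene's spread over all 31 arrays, so they are not independent. The median log2 fold change of the rises was 0.65 in XX Ctnnb1KO and 0.66 in XX DKO, and that of the falls was -0.60 and -0.57. Fst had a log2 fold change of -3.75 in XX DKO over XX Sox9KO, Lefty2 4.58, Hsd17b3 4.49, Lgr5 -2.46, Wnt4 -1.12, Axin2 -0.88 and Rspo1 0.72. The difference between both measurements was called for 0 autosomal genes (limma), and 455 had an unadjusted p under 0.05. The smallest p-values of that difference belonged to Tspo (-0.82 ± 0.21), Cotl1 (-0.82 ± 0.21), Recql4 (-0.59 ± 0.16), Plekhh3 (-0.71 ± 0.22) and Syde1 (0.71 ± 0.22) on the log2 scale, with adjusted p of 1.0 for Tspo. A missed threshold does not show that the effects are equal.

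**Figure D4:**
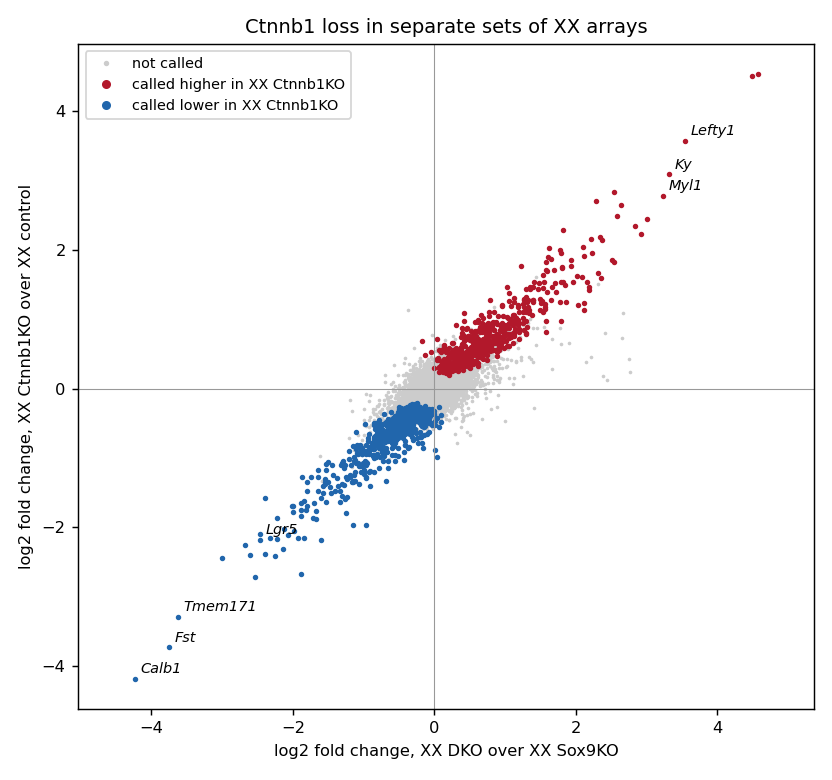
Each point is an autosomal gene; the vertical axis is its log2 fold change in XX Ctnnb1KO over XX control gonads and the horizontal axis that in XX DKO over XX Sox9KO gonads, from arrays that are not shared. Genes called higher (red) or lower (blue) on the vertical axis lie along the diagonal, and 543 of 547 and 587 of 597 have the same sign on both axes.

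Several lists were also followed in these separate arrays. The pluripotency, meiosis, general germ cell and macrophage counts above moved when single arrays were left out. The striated muscle count did not. Of the 12 pluripotency genes, 10 rose in XX DKO over XX Sox9KO, at a median log2 fold change of 1.39, among them Nanog (2.02, adjusted p = 0.00168), Pou5f1 (2.11, adjusted p = 5.52e-05) and Dppa5a (1.86, adjusted p = 1.98e-05). Of the 24 meiosis genes, 2 fell there and none rose. Of the 16 general germ cell genes, 6 rose and none fell, at a median of 0.4. Of the 18 macrophage and leukocyte genes, 14 rose, at a median of 0.97, and of the 12 striated muscle genes 6, at 0.87. Of 17 proliferation genes, 8 rose there. Beside these counts, 7.45% of all autosomal genes were called higher in XX DKO and 6.08% lower.

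In XY gonads the loss of Ctnnb1 left few traces. XY Ctnnb1KO against XY control gonads, whose genotypes match those of the XX groups of the same name (4 arrays each), gave 7 called autosomal genes, 1 higher and 6 lower. Of 11323 autosomal genes, 452 had an unadjusted p under 0.05 (limma), where chance gives about 1 in 20. The difference between the effect in XX and that in XY was called for 472 autosomal genes (4.17%), 200 with the more positive effect in XX and 272 with the more negative. The 5 with the smallest p were Fst (-4.08 ± 0.18 for XX minus XY, adjusted p = 2.38e-16), Lefty2 (4.66 ± 0.22, adjusted p = 1.84e-15), Tnfrsf19 (-2.05 ± 0.13, adjusted p = 1.79e-12), Hsd17b3 (4.67 ± 0.36, adjusted p = 2.15e-10) and Calb1 (-4.50 ± 0.36, adjusted p = 7.56e-10). In XY gonads Fst averaged 89.9 ± 20 with Ctnnb1KO and 66.4 ± 8.39 in controls, and Hsd17b3 averaged 2377 ± 191 with Ctnnb1KO and 2656 ± 221 in controls (SD, n = 4 each). Fst was thus already low and Hsd17b3 already high in the testis. Calb1 averaged 7.17 ± 5.41 in XY control gonads, which left it little room to fall. For Axin2 the difference was not called (-0.58 ± 0.17, adjusted p = 0.052), and its effect in XY gonads was -0.22 (adjusted p = 1.0). Lgr5 was called lower in XY gonads too (-0.86, adjusted p = 0.0101), by less than in XX gonads (-1.32 ± 0.22 for XX minus XY, adjusted p = 0.000209). Aldh1a3 (-1.68, adjusted p = 7.19e-07) and Pax8 (-1.61, adjusted p = 0.00203) fell in XY gonads as well.

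To place the changes on an axis from ovary to testis, each gene was classed by XY control over XX Sox9KO gonads, 8 arrays that take no part in the comparison of XX Ctnnb1KO with XX control. Higher in XY control were 1925 autosomal genes (17.0%) and lower 2255 (19.9%). Of the 547 rises, 355 were higher in XY control (64.9%), 43 lower (7.86%) and 149 neither (27.2%). Of the 597 falls, 408 were lower in XY control (68.3%), 53 higher (8.88%) and 136 neither (22.8%). Most changed genes therefore moved toward their testis level. XX Sox9KO gonads lack Sox9, which XX gonads express little, so they stand here for the ovary.

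**Figure D5:**
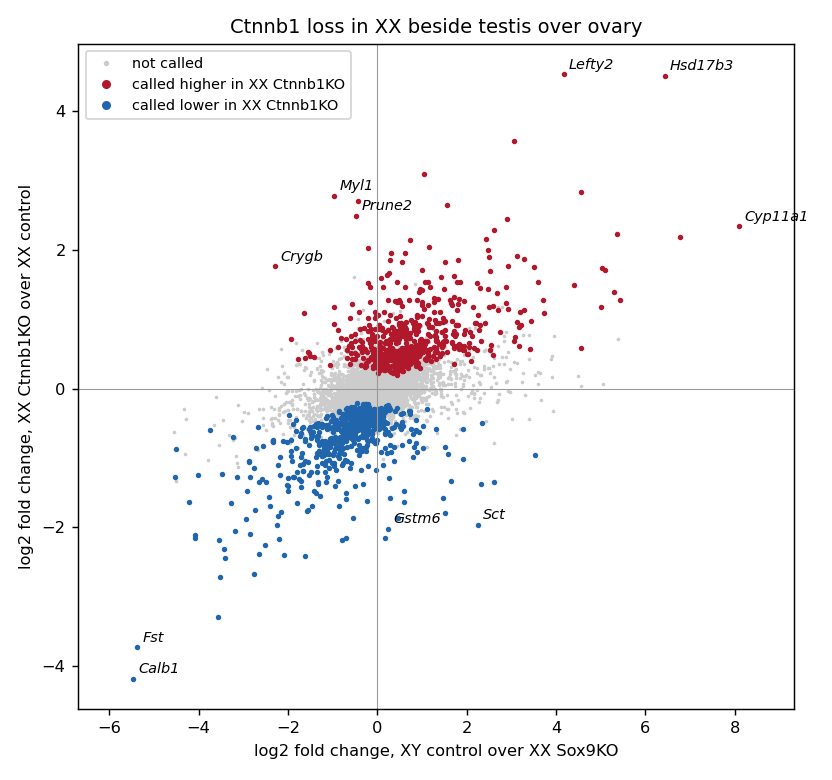
Each point is an autosomal gene; the vertical axis is its log2 fold change in XX Ctnnb1KO over XX control gonads and the horizontal axis that in XY control over XX Sox9KO gonads. Of the genes called higher (red) 355 are testis-high, and of those called lower (blue) 408 are ovary-high, while Myl1 and Crygb (upper left) and Sct (lower right) moved away from the testis level.

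The following genes were picked after their values and their sex difference were seen, and are given as a description. Crygb, a lens crystallin gene, had signals of 408, 473, 721 and 537 in XX Ctnnb1KO gonads, against 133, 105, 250.3 and 119 in XX control gonads. It was higher in every XX Ctnnb1KO array, although its log2 difference of XY control over XX Sox9KO was -2.29 (for the loss, log2 fold change 1.76 ± 0.23, adjusted p = 1.71e-06). Myl1 (-0.97) and Prune2 (-0.48, adjusted p = 0.0491) were likewise lower in XY control. Sct, the gene of the peptide hormone secretin, averaged 87.6 ± 38.3 in XX Ctnnb1KO gonads and 369.6 ± 95.7 in XX control gonads (log2 fold change -1.96 ± 0.26, adjusted p = 1.87e-06), with a sex difference of 2.25 in favour of XY. Kazald1 (-1.80 for the loss and 1.51 for XY over XX) and the calcium sensor Vsnl1 (-1.58 and 1.46) also fell while higher in testes, as did Aard and Hsd3b1. Gstm6 and Pla2g1b, a secreted phospholipase, fell by 2.02 and 2.16 on the log2 scale with sex differences of 0.23 and 0.18. Rises without a called sex difference included the potassium channel Kcnf1 (2.02 for the loss and -0.22) and Nr5a2 (1.85 and 0.29), a nuclear receptor related to Nr5a1. The neuronal membrane protein Gpm6a (1.95 for the loss) was also higher in XY control (0.61, adjusted p = 0.0133). Nr5a2 averaged 452 ± 136 in XX Ctnnb1KO gonads and 115 ± 37.6 in XX control gonads and 123 ± 64.3 in XY control gonads.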

How the data were processed

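Labelled RNA of 31 pairs of gonads, each the tissue of 1 embryo, was measured on 1-colour Affymetrix mouse arrays of 45101 probe sets. The values are linear signal intensities that the authors deposited, and the submitters' processing notes name MAS5 as the tool; the sources used here give neither version nor settings. The trimmed mean was 500.0 on every array, so the authors' scaling hides differences in total RNA. Probe sets were named through the platform annotation: 34945 had 1 symbol, 932 had several and 9160 none, and 34741 symbols matched RefSeq. Where a gene had several probe sets (9010 of 18193 genes), the one with the highest mean over all arrays was used. Genes above the median of an array on at least 3 arrays were tested.

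Log2(signal + 16) was fitted with limma 3.58.1 (R 4.3.3) as 8 group means over all 31 arrays, with a trend in eBayes and 23 residual degrees of freedom. All p-values were adjusted by Benjamini-Hochberg over 11787 genes, and calls were made below 0.05. No array was dropped or imputed. Groups were taken from the sample titles. The procedure was checked on simulated data. The number of arrays, 4 a group here, limits the precision; scan dates were not used. Tables and plots were made in Python 3.11.15.

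The genes named are the 12 largest rises and the 12 largest falls among called genes without overlap between arrays, in each list at most the 5 called members with the smallest p and members that show its other side, and genes named as chosen after their values were seen. The gene lists and these genes were chosen with earlier results of these data known. Alternatives were quantile normalization, a pseudocount of 1 or 64, no filter, the mean over probe sets, no trend, a fit of only the 8 arrays, a replicate block, and leaving out each array in turn.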

Additional observations from a re-analysis of the deposited data

Results flagged for a closer look

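An array that stands far from the other 3 of its group, by the ratio of its gap to the whole range, was found 29 times in 385 tests of a named gene in a group, where chance gives about 1 in 20. Among them was Xist in XX Ctnnb1KO replicate 4, at a signal of 51.1, beside 7886 to 8553 in the other 3 arrays. Replicate 1 of XX Ctnnb1KO was above the other 3 arrays for Lefty1 (275, against 217 to 224). Replicate 1 of XX Ctnnb1KO was below the other 3 arrays for Aldh1a1 (2985, against 3460.5 to 3515). Replicate 2 of XX Ctnnb1KO was above the other 3 arrays for Ccnd2 (3587, against 2339 to 2505), Cnmd (422, against 149 to 151), Cst9 (477, against 362 to 367), Gpm6a (1185, against 586 to 634) and Id2 (1104, against 911 to 940). Replicate 2 of XX Ctnnb1KO was below the other 3 arrays for Bmp2 (259, against 311 to 322), Gstm7 (373, against 441 to 449), Prune2 (363, against 555 to 592) and Sct (31.5, against 95.8 to 116). Replicate 3 of XX Ctnnb1KO was above the other 3 arrays for Gstm6 (436, against 327 to 340). Replicate 3 of XX Ctnnb1KO was below the other 3 arrays for Amh (11, against 12.1 to 12.3) and Insyn2b (36.4, against 42.4 to 43.4). Replicate 4 of XX Ctnnb1KO was above the other 3 arrays for Pmaip1 (266, against 207 to 213) and Tnfrsf19 (659.6, against 558 to 569). Replicate 4 of XX Ctnnb1KO was below the other 3 arrays for Gsta2 (113, against 182 to 193) and Tmem174 (5.15, against 43 to 53.5). Replicate 1 of XX control was above the other 3 arrays for Id2 (2214, against 1342 to 1383). Replicate 1 of XX control was below the other 3 arrays for Rec8 (2402, against 2782 to 2865). Replicate 2 of XX control was above the other 3 arrays for Lefty1 (14, against 2.21 to 2.77) and Tdgf1 (39.4, against 7.62 to 11). Replicate 2 of XX control was below the other 3 arrays for Aard (1185, against 1331 to 1339), Krt8 (1349, against 1707 to 1749) and Prune2 (60.3, against 82.4 to 84). Replicate 3 of XX control was above the other 3 arrays for Ptgds (368, against 196 to 214). Replicate 4 of XX control was above the other 3 arrays for Ky (44.5, against 22.2 to 23). Replicate 4 of XX control was below the other 3 arrays for Znrf3 (476, against 568 to 578).

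The effect of Ctnnb1 loss differed between XX and XY gonads for 472 autosomal genes (limma, interaction term), of which 96 are named in the text. Their difference, XX effect minus XY effect on the log2 scale, is given here. A gene near background in XY control gonads had little room to fall there. Calb1, Tmem171, Insyn2b, Dlx3 and Tmem174 had mean signals of 7.17, 7.4, 15.6, 7.83 and 4.61 in XY control gonads, below the pseudocount of 16. For such genes the difference does not show an effect limited to XX. The effect was more positive in XX for Hsd17b3 (4.67), Lefty2 (4.66), Lefty1 (3.54), Pmaip1 (2.81), Cphx3 (2.49), Kcnf1 (2.41), Prune2 (2.32), Ky (2.29), Cyp11a1 (2.26), Cbln1 (2.17), Cnmd (2.16), Nppc (2.10), Fabp3 (2.06), Cyp17a1 (2.04), Lhx1 (2.04), Inhba (1.93) and Gpm6a (1.83). Smaller positive differences were found for Ptgds (1.76), Mybpc3 (1.69), Nodal (1.67), Gsta2 (1.66), Cxcl12 (1.63), Myl1 (1.63), Nr5a2 (1.58), Sostdc1 (1.54), Dhh (1.53), Crygb (1.49), Fgf18 (1.46), Vnn1 (1.36), Cst9 (1.33), Tnc (1.32), Fbln2 (1.30), Egr1 (1.22) and Etv5 (1.08). They were smallest among those called for Myh11 (0.99), Casq2 (0.95), Inhbb (0.86), Inha (0.83), Jag1 (0.81), Klf2 (0.80), Heyl (0.79), Klf4 (0.79), Star (0.77), Pdgfra (0.64), Jup (0.63), Acta2 (0.57), Rspo1 (0.53), Acvr1 (0.50) and Igf1r (0.42). The effect was more negative in XX for Calb1 (-4.50), Fst (-4.08), Tmem171 (-3.50), Insyn2b (-2.95), Dlx3 (-2.81), Tmem174 (-2.59), Pla2g1b (-2.40), Thbs2 (-2.38), Cntn4 (-2.37), Sct (-2.23), Pla2r1 (-2.14), Tnfrsf19 (-2.05), Sorbs2 (-1.89), Gstm6 (-1.73), Kazald1 (-1.60) and Irx3 (-1.58). Differences of lesser size were found for Rmst (-1.58), Rec8 (-1.44), Rnf43 (-1.34), Wnt4 (-1.34), Lgr5 (-1.32), Msx1 (-1.26), Hsd3b1 (-1.22), Bmpr1b (-1.09), Emx2 (-1.03), Cdkn1b (-0.98), Aard (-0.96), Bmp2 (-0.94), Boc (-0.94), Id2 (-0.92), Wnt6 (-0.90) and Gstm7 (-0.88). Nearest to 0 among the called ones were Irx5 (-0.88), Fbn2 (-0.85), Nkd1 (-0.84), Wnt2b (-0.81), Foxl2 (-0.78), Igfbp2 (-0.78), Id3 (-0.77), Runx1 (-0.76), Cdkn1c (-0.74), Tspo (-0.73), Kitl (-0.72), Nkd2 (-0.69), Myl9 (-0.65), Fgfr2 (-0.62) and Gstm2 (-0.46).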

How the results depend on the processing

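With a replicate block, that is the replicate number of the titles as a block in a fit of the 8 arrays, 564 autosomal genes were called between XX Ctnnb1KO and XX control, 250 higher and 314 lower, against 1144. The fit of only the 8 arrays without the block gave 786, so part of the loss comes with the smaller number of arrays that estimate the spread. The titles do not say that a number marks a shared litter or day. Deviations of same-numbered arrays from their group means correlated at -0.182, -0.448, 0.104 and 0.13 for numbers 1 to 4. Those of differently numbered arrays ran from -0.262 to 0.456. So few correlations cannot show whether same-numbered arrays share a litter or day. The other settings kept the count within 1.5 times: 1198 with quantile normalization, 1140 and 1134 with a pseudocount of 1 and 64, 1131 without the filter, 1150 with the mean over probe sets and 1138 without the trend. Leaving out 1 array in turn gave 924 to 1091 calls for XX Ctnnb1KO against XX control, 1140 to 1611 for XX DKO against XX Sox9KO, 393 to 463 for the difference between XX and XY, 3617 to 4070 for XY control against XX Sox9KO, and 0 for the difference between XX gonads with and without Sox9. Of 192 autosomal genes named, 152 were called, and 108 of these kept the call and its direction under all 16 alternatives. A call was lost 37 times under the replicate block and 21 times in the fit of the 8 arrays, and no gene changed sign with a call. Limits: signals near the background of the array have no reliable order, a probe set measures 1 stretch of a transcript, and scaling to a common trimmed mean would hide a change in the total amount of RNA. The deletion of Ctnnb1 could not be measured with these probe sets.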
